A study of Mus musculus with 16 samples.

Results

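Genes by which macrophages and monocytes are usually recognised were followed across mouse dendritic cell (DC) progenitors. They were *Adgre1*, *C1qa*, *C1qb*, *C1qc*, *Apoe*, *Cd68*, *Cd14*, *Vcam1* and *Hmox1*. Each was found on the arrays by its symbol, as a probe set that carried that symbol alone. All 9 listed genes had 1 such probe set each, among 19938 genes measured. The cells were monocyte DC progenitors (MDPs) and the more committed common DC progenitors (CDPs), sorted from bone marrow. They came from IkL/L mice, whose Ikaros gene (*Ikzf1*) carries a hypomorphic mutation in every cell, or from WT mice. The CD45.2+ progenitors were kept for 24 h with whole CD45.1+ bone marrow cells, in medium that held Flt3L from a producer line, with either a γ-secretase inhibitor (GSI, Compound E, 5 µM) or its solvent DMSO (vehicle). CD45.2+ cells were then sorted again and their RNA was amplified and hybridised. There were thus 8 groups: IkL/L CDPs with GSI or vehicle, WT CDPs with GSI or vehicle, IkL/L MDPs with GSI or vehicle, and WT MDPs with GSI or vehicle. Every group had 2 arrays, 16 in all. A pair of mice stood behind each condition.

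MDPs can still form monocytes, macrophages and DCs, whereas CDPs form DCs. Macrophages clear dying cells and debris, and many of their known genes serve this task. *Adgre1* encodes F4/80, the surface protein by which mouse macrophages are sorted. *C1qa*, *C1qb* and *C1qc* encode the 3 chains of C1q, the molecule that starts the classical complement pathway. *Apoe* encodes the lipid carrier apolipoprotein E, *Cd68* a lysosomal membrane protein of phagocytes, and *Cd14* the co-receptor that hands bacterial lipopolysaccharide (LPS) to TLR4. *Vcam1* encodes an adhesion molecule of endothelium, stroma and some tissue macrophages that binds integrin α4. *Hmox1* encodes heme oxygenase, which breaks heme down and is also induced by oxidative stress.

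The genes *C1qb*, *C1qc* and *C1qa* stand next to each other in this order on mouse chromosome 4, with no other protein-coding gene between them. RefSeq promoter sequences (build GRCm38.p6) were at hand for 4 of the 9 genes. Those of the C1q pair are shown because both genes varied together over the arrays, and that of *Cd68* because it was the gene that differed between stages. Each is the 250 bases before the annotated start, on the minus strand, and capitals mark the motifs found.
C1qb, chr4:136886201-136886450: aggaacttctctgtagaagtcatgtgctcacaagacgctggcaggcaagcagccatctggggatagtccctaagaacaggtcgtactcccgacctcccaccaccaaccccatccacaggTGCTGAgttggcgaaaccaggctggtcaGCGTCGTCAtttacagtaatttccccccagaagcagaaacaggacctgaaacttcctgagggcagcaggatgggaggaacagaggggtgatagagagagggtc
C1qc, chr4:136892915-136893164: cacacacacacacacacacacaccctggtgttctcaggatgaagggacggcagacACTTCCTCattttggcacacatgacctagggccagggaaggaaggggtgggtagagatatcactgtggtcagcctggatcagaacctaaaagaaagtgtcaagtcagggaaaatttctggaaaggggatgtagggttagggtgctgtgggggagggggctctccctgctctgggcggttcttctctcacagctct
Cd68, chr11:69666171-69666420: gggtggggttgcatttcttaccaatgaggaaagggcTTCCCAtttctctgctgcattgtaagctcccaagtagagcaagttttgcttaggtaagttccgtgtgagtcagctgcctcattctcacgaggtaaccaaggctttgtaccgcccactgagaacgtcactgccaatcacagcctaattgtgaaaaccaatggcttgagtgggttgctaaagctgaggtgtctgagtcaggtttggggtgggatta
The following motifs were searched on both strands. The Ikaros core TGGGAA lies within the RBPJ motif GTGGGAA. The others were the PU.1 motif GAGGAAGT, the antioxidant response element TGACNNNGC and the MAF core motif TGCTGA. The *Cd68* window held 1 Ikaros core, on the reverse strand, as did 21.6% of 32851 promoter windows of this length. The *C1qc* window held 1 PU.1 motif (2.44% of windows), and that of *C1qb* held 1 MAF core motif (16.1%) and 1 antioxidant response element (10.2%). The RBPJ motif was found in none of these windows (5.42% of all), and the *Apoe* window at its most upstream start held none of the 5 motifs. A match is a run of letters and not a measured binding site.

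The values are log2 signals after robust multi-array averaging (RMA) and ran over all genes between 2.55 and 13.46, with array medians from 4.52 to 4.65. A difference of 1 is a 2-fold difference in signal, and levels of different genes are not compared, because each probe set has its own brightness. *Ikzf1* itself was lower in IkL/L progenitors by 0.40 on average (SE 0.07, adjusted p = 0.00666), with 8 IkL/L arrays at 8.36 to 8.94 and 8 WT arrays at 8.90 to 9.20. Nothing in the labels ties the arrays of a group to the pair of mice or to separate cultures, so p-values measure the spread between these arrays. In a sorted population, fewer cells that express a gene and less of its RNA per cell cannot be told apart.

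RMA gives each gene a value on every array, and detection above background was not tested. The plot of signals by array shows all 9 genes. The lowest arrays of *C1qa* (4.44), *C1qb* (4.61) and *C1qc* (4.83) lay near the array medians of 4.52 to 4.65. *Cd14* varied most between groups, with group means 3.12 apart on the log2 scale, followed by *Apoe* at 2.33. *C1qb* (1.96), *C1qc* (1.87) and *Vcam1* (1.75) came next. The spans of *Hmox1* (1.24), *Cd68* (1.09), *C1qa* (1.02) and *Adgre1* (0.95) were smaller. The spread between the 2 arrays of a group was large beside these spans for *Adgre1*, with a pooled SD of 1.07, and small for *Cd68*, at 0.24.

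**Figure D1:**
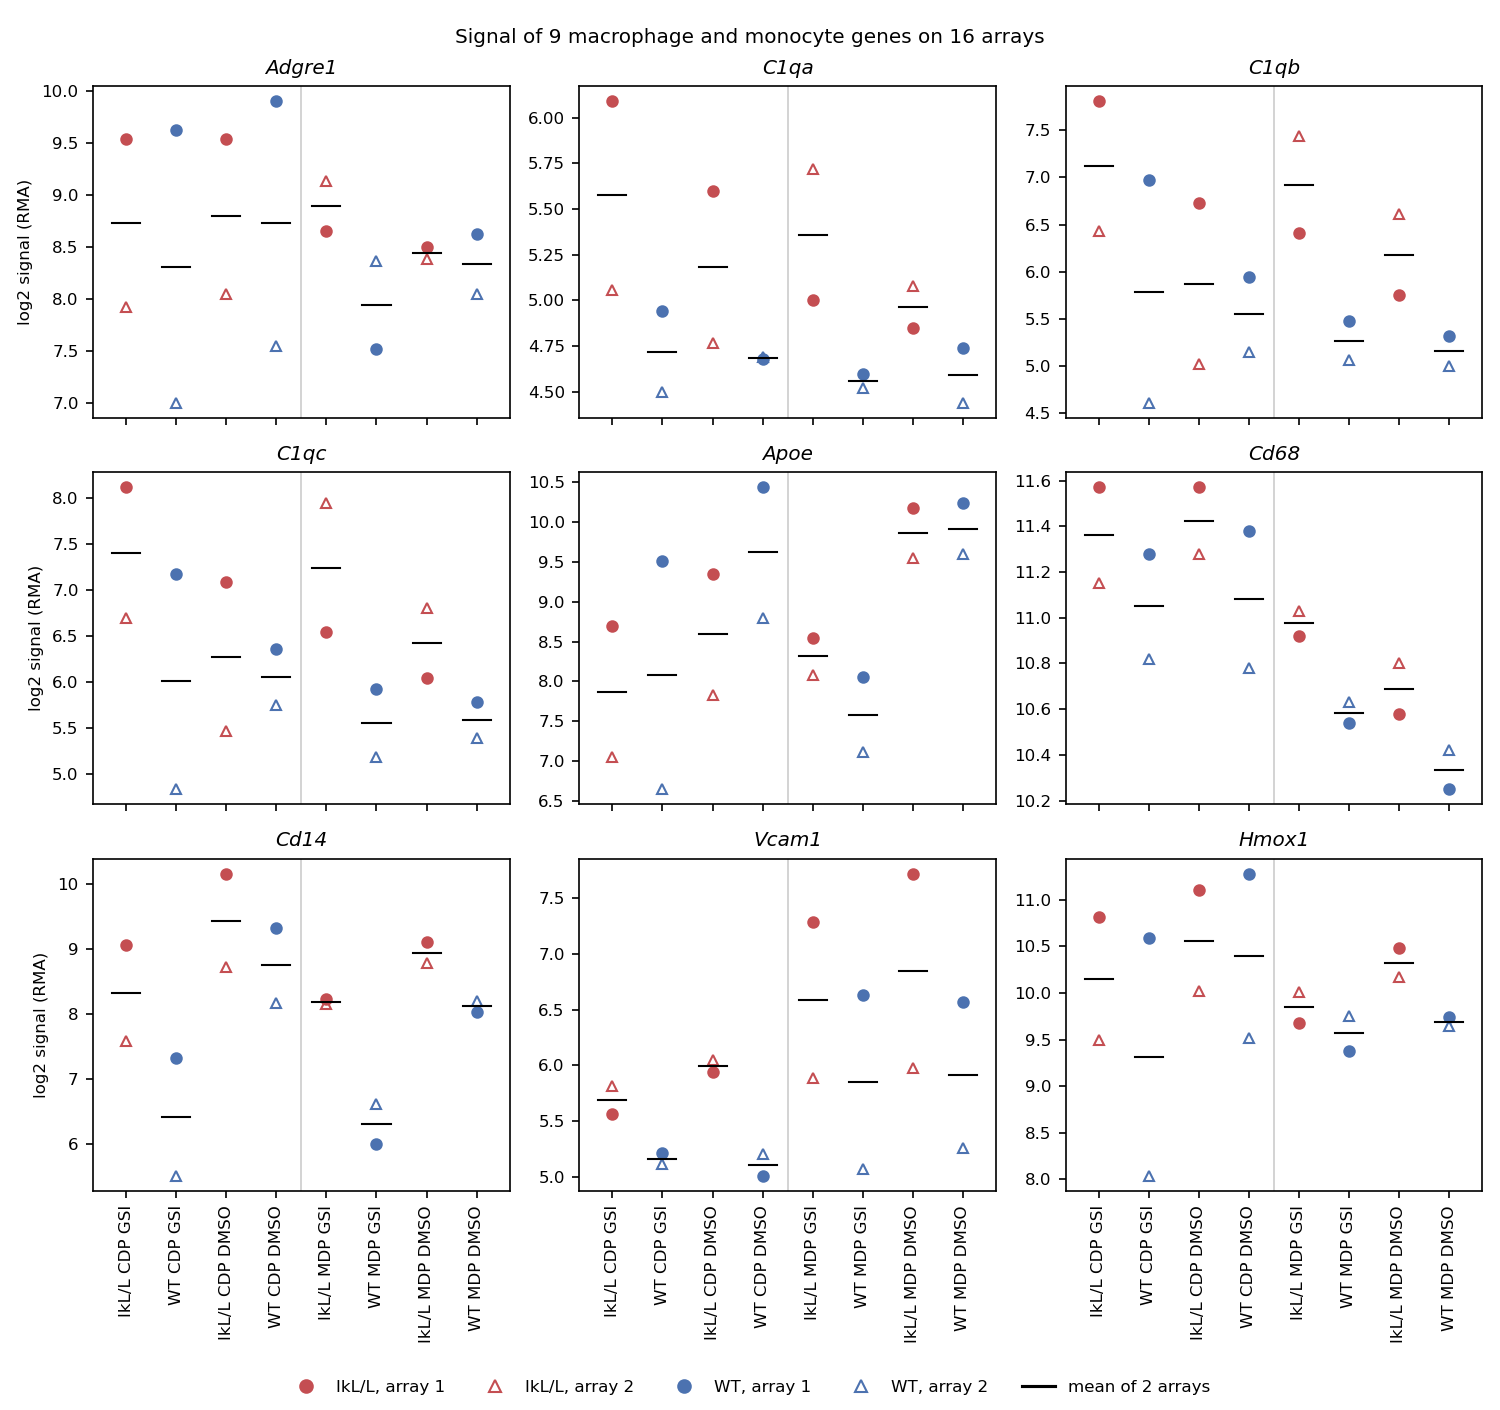
Log2 RMA signal (vertical axis, own scale in each panel) of the 9 genes in the 8 groups, with CDPs left and MDPs right of the grey line. Red symbols are IkL/L and blue symbols WT arrays, circles array 1 and triangles array 2, and the black bar is the mean of 2 arrays. *C1qa* arrays lie higher in IkL/L than in WT progenitors in all 4 comparisons, and *Cd68* arrays lie higher in CDPs than in MDPs of the same genotype and treatment.

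The first question was how the 9 genes differed with Ikaros deficiency. Averaged over both stages and treatments, 8 of 9 had a higher mean in IkL/L than in WT progenitors, as did 41.1% of all genes. Their median difference was 0.63, against -0.02 over all genes. One of the 9 genes, *Cd14*, passed the test (limma, adjusted p under 0.05), while 6.0% of all genes did so and 3.85% did so upward. At an unadjusted p under 0.05 there were 6 of the 9 genes and 18.1% of all genes.

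*Cd14* rose 2.50-fold in IkL/L progenitors, by 1.32 (SE 0.34, adjusted p = 0.0456), to a mean of 8.73 in IkL/L against 7.40 in WT. In CDPs with GSI it was 9.06 and 7.59 in IkL/L, against 7.32 and 5.52 in WT. In MDPs with GSI it was 8.24 and 8.15 in IkL/L, against 6.01 and 6.62 in WT. The arrays of both genotypes did not overlap in either case, and the differences were 1.90 and 1.88. With vehicle, *Cd14* was 9.11 and 8.78 in IkL/L MDPs, against 8.03 and 8.21 in WT MDPs, again without overlap and with a difference of 0.83. In vehicle-treated CDPs it was 10.16 and 8.72 in IkL/L, against 9.33 and 8.18 in WT, where the arrays overlapped at a difference of 0.68. The genotype difference was 1.14 larger with GSI than with vehicle, which did not pass the test (adjusted p = 1.00). The call of *Cd14* held without any 1 of 4 arrays (WT CDP vehicle 1, WT CDP GSI 1, IkL/L CDP vehicle 2 and IkL/L CDP GSI 2) and was lost without any 1 of the other 12, with adjusted p-values from 0.0188 to 0.106 and differences from 1.10 to 1.55.

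The 3 C1q genes had higher means in IkL/L progenitors in all 4 comparisons. *C1qa*, which encodes the A chain, was the gene whose arrays did not overlap in any of them, as seen upward in 2.44% of all genes. *C1qa* was 6.09 and 5.06 in IkL/L CDPs with GSI, against 4.94 and 4.50 in WT. With vehicle, IkL/L CDPs had 5.60 and 4.77 and WT CDPs 4.68 and 4.69. IkL/L MDPs with GSI had 5.00 and 5.72, against 4.60 and 4.52 in WT, and with vehicle 4.85 and 5.08, against 4.74 and 4.44. All WT values of *C1qa* lay between 4.44 and 4.94, close to the array medians. The differences in this order were 0.86, 0.50, 0.80 and 0.37. The averaged difference of *C1qa* was 0.63 (95% interval 0.24 to 1.03), at an unadjusted p of 0.00511 and an adjusted p of 0.0711, so it missed the threshold. It passed without IkL/L CDP vehicle array 2 (0.0439) or IkL/L CDP GSI array 2 (0.0238).

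*C1qb* and *C1qc*, the B and C chains, differed by more but varied by more. In MDPs with GSI *C1qb* was 6.41 and 7.44 in IkL/L, against 5.48 and 5.06 in WT, and with vehicle 5.75 and 6.61 in IkL/L, against 5.32 and 5.00 in WT. Both pairs of groups were apart. In CDPs with GSI it was 7.81 and 6.43 in IkL/L, against 6.97 and 4.61 in WT, and with vehicle 6.73 and 5.02, against 5.95 and 5.15. In CDPs the genotypes overlapped. The averaged difference of *C1qb* was 1.08 (95% interval 0.20 to 1.97, adjusted p = 0.168), and without WT CDP GSI array 1 its adjusted p was 0.0485. *C1qc* behaved alike on these arrays, with an averaged difference of 1.04 (95% interval 0.13 to 1.95, adjusted p = 0.201). Its arrays were 6.54 and 7.95 in IkL/L MDPs with GSI, against 5.92 and 5.18 in WT, and 6.04 and 6.81 with vehicle, against 5.78 and 5.39.

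*Cd68* averaged 0.35 higher in IkL/L progenitors (95% interval 0.11 to 0.59, adjusted p = 0.103), and its arrays did not overlap between genotypes in MDPs with either treatment. Without WT CDP vehicle array 1 its adjusted p was 0.0330. *Vcam1* averaged 0.77 higher (95% interval 0.03 to 1.52, adjusted p = 0.255). In vehicle-treated CDPs *Vcam1* was 5.94 and 6.05 in IkL/L, against 5.01 and 5.20 in WT, and with GSI 5.56 and 5.81, against 5.21 and 5.11. The CDP arrays were thus apart by genotype, while those of MDPs overlapped. *Hmox1* (0.48, adjusted p = 0.601) and *Adgre1* (0.38, adjusted p = 0.742) had intervals that included 0. *Apoe* was the exception in direction, with a difference of -0.14 (95% interval -1.17 to 0.89, adjusted p = 0.916). In vehicle-treated CDPs *Apoe* was 9.35 and 7.83 in IkL/L, against 10.43 and 8.80 in WT, a difference of -1.03 with overlapping arrays.

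None of the 9 genes was called in any single genotype comparison, where 2 arrays stood against 2. All genes were called at 2.15% in CDPs with GSI, 1.18% in CDPs with vehicle, 0.115% in MDPs with GSI and 0.105% in MDPs with vehicle. At an unadjusted p under 0.05 (limma) there were 2 of the 9 genes in CDPs with GSI (10.5% of all genes), 0 in CDPs with vehicle (9.38%), 2 in MDPs with GSI (6.81%) and 0 in MDPs with vehicle (4.41%). A difference over 1.5-fold, whatever its p, was found for 5 of 9 genes on average (3.24% of all genes), 5 in CDPs with GSI (6.07%), 3 in CDPs with vehicle (5.47%), 7 in MDPs with GSI (2.78%) and 5 in MDPs with vehicle (2.17%). Arrays of IkL/L progenitors lay wholly above those of WT for 3 of 9 genes in CDPs with GSI (16.7% of all genes) and 2 of 9 with vehicle (16.3%). In MDPs they did so for 7 of 9 genes with GSI (15.7%) and 6 of 9 with vehicle (15.2%).  An exact permutation test of 2 against 2 arrays cannot give a two-sided p under 0.333. The genotype difference was not shown to depend on stage for any of the 9 genes, of which 0 were called (limma; 0.562% of all genes), 0 had an unadjusted p under 0.05 (6.43%) and 1 differed over 1.5-fold (3.51%). For *Apoe* the difference in CDPs minus that in MDPs was -0.96 (adjusted p = 0.999).

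**Figure D2:**
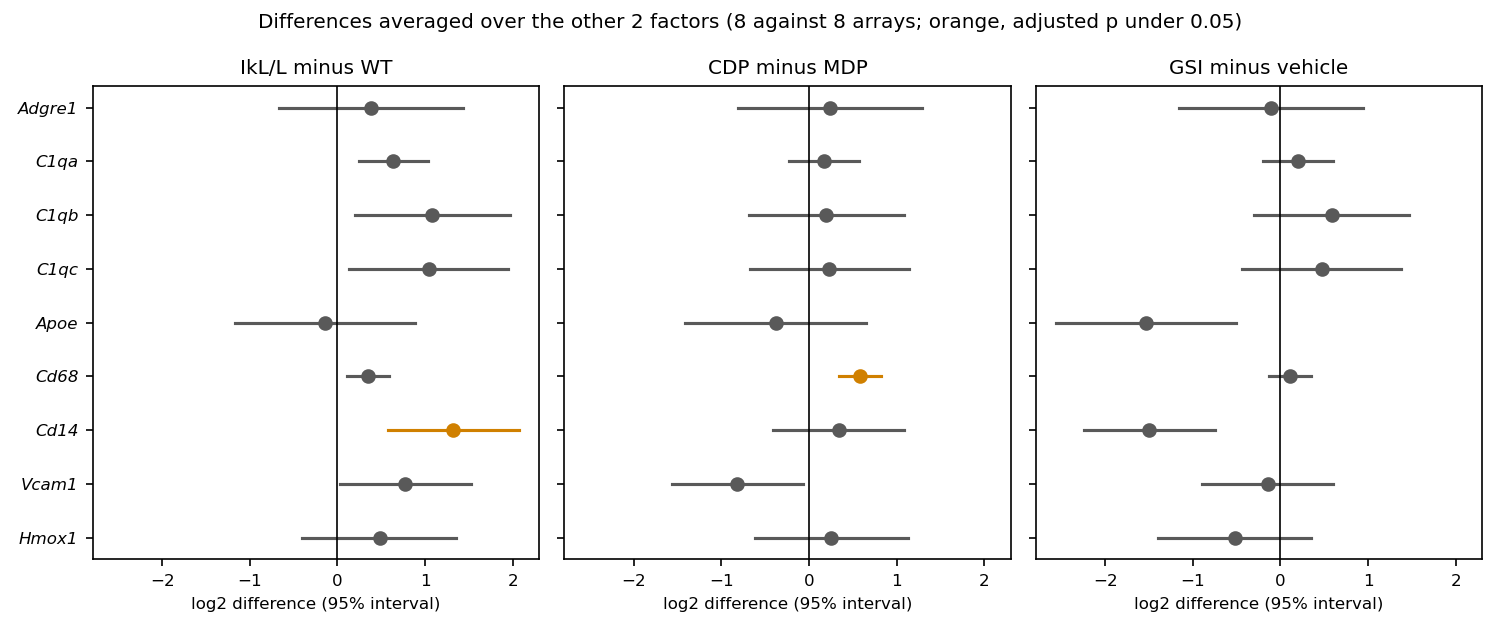
Log2 difference (horizontal axis, 95% interval as a line) of each of the 9 genes between IkL/L and WT, CDPs and MDPs, and GSI and vehicle, each averaged over the other factors, from 8 against 8 arrays. Orange marks an adjusted p under 0.05, which is seen for *Cd14* by genotype (1.32) and *Cd68* by stage (0.58). *Cd14* (-1.50) and *Apoe* (-1.53) lie lowest with GSI.

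The next comparison was that of the stages. *Cd68* rose in CDPs by 0.58 (SE 0.11, adjusted p = 0.00805), and was the 1 gene of the 9 that was called (8.74% of all genes). In IkL/L progenitors with vehicle it was 11.57 and 11.28 in CDPs, against 10.58 and 10.80 in MDPs, and with GSI 11.57 and 11.15, against 10.92 and 11.03. In WT progenitors with vehicle it was 11.38 and 10.78 in CDPs, against 10.25 and 10.42 in MDPs, and with GSI 11.28 and 10.82, against 10.54 and 10.63. In all 4 comparisons the arrays of CDPs lay above those of MDPs, as for 2.43% of all genes. The differences were 0.74 with vehicle in either genotype, 0.39 with GSI in IkL/L and 0.46 with GSI in WT. The call was kept without each of the 16 arrays in turn, with adjusted p-values from 0.00291 to 0.0265.

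*Vcam1* had lower means in CDPs in all 4 comparisons, by 0.82 on average (95% interval -1.56 to -0.07, adjusted p = 0.202). Its MDP arrays were far apart within groups, at 7.29 and 5.89 in IkL/L with GSI, 7.72 and 5.98 in IkL/L with vehicle, 6.63 and 5.07 in WT with GSI and 6.57 and 5.26 in WT with vehicle. In each MDP group array 1 was the higher. For the other 7 genes the averaged stage difference lay between -0.38 for *Apoe* and 0.34 for *Cd14*, with adjusted p-values from 0.685 to 0.871. By single comparison none of the 9 genes was called, in IkL/L with GSI (2.42% of all genes), IkL/L with vehicle (1.71%), WT with GSI (0.176%) or WT with vehicle (0.0953%). At an unadjusted p under 0.05 (limma) there was 1 gene, *Cd68*, with vehicle in IkL/L (10.7% of all genes) and in WT (5.38%), and 0 with GSI in IkL/L (11.8%) or WT (7.97%). Averaged over genotype and treatment, 2 of 9 genes had such a p (19.7%). A stage difference over 1.5-fold was found for 1 of 9 genes on average (4.19%), 1 in IkL/L with GSI (7.22%), 3 in IkL/L with vehicle (6.89%), 1 in WT with GSI (4.31%) and 4 in WT with vehicle (2.82%). The stage difference was not shown to depend on GSI, with 0 of 9 genes and 0% of all genes called (limma), 0 of 9 at an unadjusted p under 0.05 (2.11%) and 1 of 9 over 1.5-fold (1.07%).

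GSI blocks the protease that releases the active part of Notch and of many other membrane proteins, and was compared with vehicle in each population. None of the 9 genes was called on average over the 4 populations (limma; 0.306% of all genes), while 2 of 9 had an unadjusted p under 0.05 (11.4% of all genes). These were *Cd14* and *Apoe*, both with lower means in all 4 populations. With the replicate number added to the fit, both passed the threshold, as given under the dependence on processing. No label says what this number stands for. *Cd14* had a difference of -1.50 with GSI (95% interval -2.24 to -0.75, unadjusted p = 0.00112, adjusted p = 0.110). *Apoe* had one of -1.53 (95% interval -2.56 to -0.51, unadjusted p = 0.00753, adjusted p = 0.233). A lower mean in all 4 populations was seen in 12.0% of all genes and, besides these, in *Hmox1* (-0.52, adjusted p = 0.657).

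In WT CDPs *Cd14* was 7.32 and 5.52 with GSI, against 9.33 and 8.18 with vehicle, a difference of -2.33. In WT MDPs it was 6.01 and 6.62 with GSI, against 8.03 and 8.21 with vehicle, a difference of -1.80. In IkL/L MDPs it was 8.24 and 8.15 with GSI, against 9.11 and 8.78 with vehicle, a difference of -0.75. GSI arrays lay wholly below vehicle arrays in these 3 populations. In IkL/L CDPs they overlapped, at 9.06 and 7.59 with GSI, against 10.16 and 8.72 with vehicle, a difference of -1.11. The WT groups with GSI were the 2 lowest of the 8 in *Cd14*, and the step from WT MDPs with vehicle down to WT CDPs with GSI was the one break in the order of group means where neighbouring groups did not overlap.

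*Apoe* was 8.05 and 7.11 in WT MDPs with GSI, against 10.23 and 9.59 with vehicle, a difference of -2.33. In IkL/L MDPs it was 8.55 and 8.08 with GSI, against 10.17 and 9.55 with vehicle, a difference of -1.55. In both MDP populations the arrays were apart. In CDPs they overlapped, with 9.51 and 6.65 in WT with GSI, against 10.43 and 8.80 with vehicle (-1.54), and 8.69 and 7.05 in IkL/L with GSI, against 9.35 and 7.83 with vehicle (-0.72). The difference in IkL/L CDPs turned to 0.04 without vehicle array 1 and to 0.10 without GSI array 2. Either step leaves a lone array in a group, and array 1 lay above array 2 by 1.52 with vehicle and 1.64 with GSI. Between same-numbered arrays of this population *Apoe* was lower with GSI, at 8.69 against 9.35 and 7.05 against 7.83. No label says what the number stands for.

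**Figure D3:**
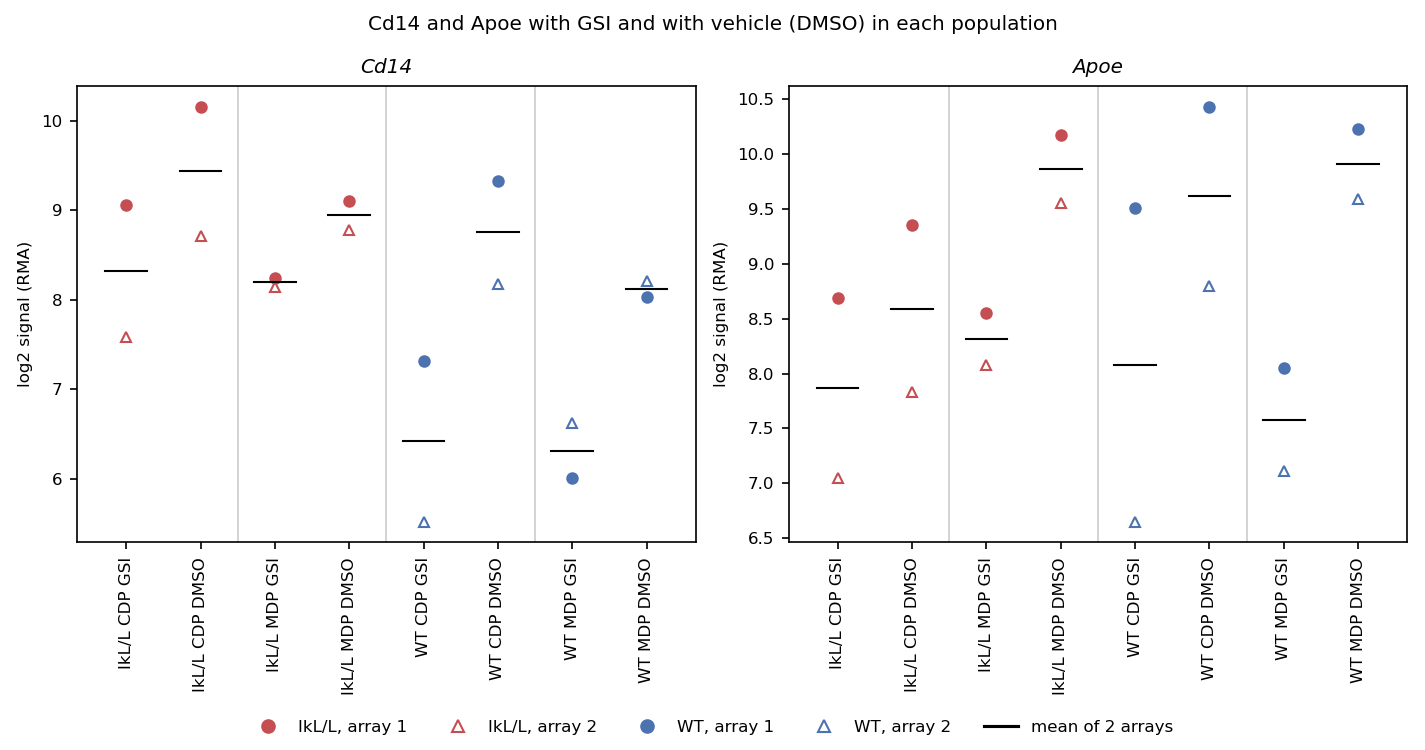
Log2 RMA signal (vertical axis) of *Cd14* and *Apoe* on each array, with GSI left of vehicle (DMSO) in each population, circles for array 1, triangles for array 2 and a bar for the mean. *Cd14* arrays with GSI lie below those with vehicle except in IkL/L CDPs, and *Apoe* arrays do so in both MDP populations.

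The other 6 genes had averaged GSI differences between -0.14 for *Vcam1* and 0.59 for *C1qb*. *C1qb* had a higher mean with GSI in all 4 populations, with a 95% interval of -0.30 to 1.47. By population none of the 9 genes was called in IkL/L CDPs (0.00502% of all genes), IkL/L MDPs (0%), WT CDPs (0.0100%) or WT MDPs (0%) by limma. At an unadjusted p under 0.05 there were 0 in IkL/L CDPs (3.50%), 0 in IkL/L MDPs (2.62%), 1 in WT CDPs (4.10%) and 2 in WT MDPs (6.77%). A difference over 1.5-fold was found for 3 of 9 genes on average (0.747%), 4 in IkL/L CDPs (1.34%), 4 in IkL/L MDPs (0.928%), 3 in WT CDPs (2.05%) and 2 in WT MDPs (1.92%). The genotype difference was not shown to depend on GSI, with 0 of 9 genes and 0% of all genes called (limma). There were 0 of 9 at an unadjusted p under 0.05 (limma; 1.60%) and 5 of 9 over 1.5-fold (0.572%). These 5 ran from 0.60 to 1.14 with SEs from 0.67 to 0.95, and their 95% intervals included 0. Here and in the other counts, a fold threshold takes no account of the spread between arrays.

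In the 4 CDP groups the 2 arrays differed in the same way for most of the 9 genes. Array 1 was the higher in 8 of 9 genes in IkL/L CDPs with GSI, 9 of 9 in WT CDPs with GSI, 8 of 9 in IkL/L CDPs with vehicle and 7 of 9 in WT CDPs with vehicle. Over all genes array 1 was the higher in 46.5%, 43.6%, 51.6% and 43.1% of them. The median gap of the 9 genes was 1.38, 2.35, 1.44 and 0.80 in these groups, and that of all genes lay between -0.03 and 0.01. *Adgre1* illustrates it, at 9.54 and 7.92 in IkL/L CDPs with GSI, 9.62 and 7.00 in WT CDPs with GSI, 9.54 and 8.05 in IkL/L CDPs with vehicle and 9.90 and 7.55 in WT CDPs with vehicle. *Hmox1* did likewise, at 10.82 and 9.49, 10.59 and 8.04, 11.10 and 10.02, and 11.28 and 9.52 in the same order. In the MDP groups array 1 was the higher in 3, 5, 5 and 7 of the 9 genes, for IkL/L and WT with GSI and IkL/L and WT with vehicle. What the replicate number stands for is not given in the labels.

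**Figure D4:**
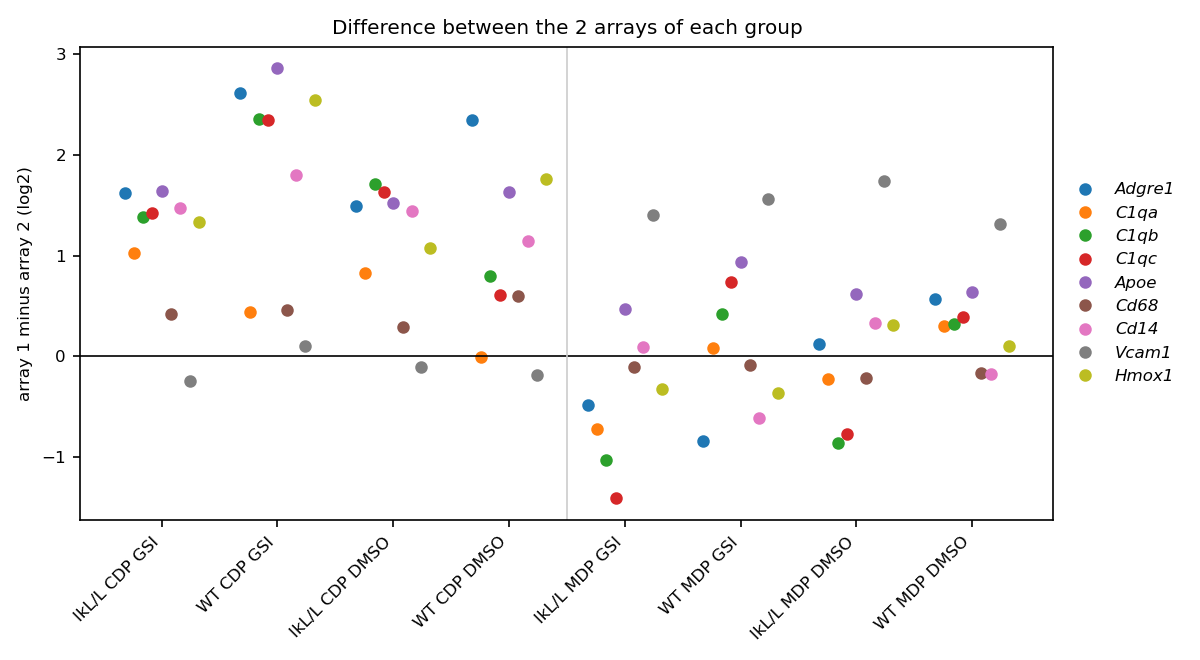
Array 1 minus array 2 (vertical axis, log2) for each of the 9 genes, by group, with CDPs left and MDPs right of the grey line. In CDPs the gaps lie mostly above 0, with medians from 0.80 to 2.35, and in MDPs on both sides of it, with *Vcam1* above 0 in all 4 MDP groups.

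Over the 16 arrays *C1qb* and *C1qc* moved most alike (Pearson r = 0.99), and *C1qa* followed *C1qc* (0.91) and *C1qb* (0.89). *Adgre1* and *Hmox1* had r = 0.89 and *Cd14* and *Hmox1* 0.81. *Vcam1* stood apart, with r from -0.29 to 0.23 against the other 8. These are descriptions over arrays that share groups and replicate number. Among genes outside the 9, those most like the mean of the C1q genes were *Rab11fip5* (0.862), *0610038B21Rik* (0.855), *Mpc1* (0.852), *Kcnj10* (0.836) and *Lair1* (0.830). Those most like *Cd14* were *Adgre4* (0.952), *Nampt* (0.920), *Axl* (0.911), *Zfp944* (0.909) and *Pilrb1* (0.906), and those most like *Apoe* were *Hgf* (0.903), *Akap7* (0.890), *Zfp386* (0.889), *Tgm2* (0.888) and *Avl9* (0.887).

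In order of group means, few neighbouring groups were apart. *Cd68* ran from IkL/L CDPs with vehicle (mean 11.42) through the other CDP groups to WT MDPs with vehicle (10.33), and in 2 of its 7 steps neighbours did not overlap. Both were steps within MDPs from GSI down to vehicle, by 0.29 in IkL/L and by 0.25 in WT. Arrays overlapped at the step from CDPs to MDPs (WT CDPs with GSI to IkL/L MDPs with GSI, 0.08). *Cd14* and *Vcam1* had 1 step without overlap each. *Adgre1*, *Apoe*, *Hmox1* and the C1q genes had 0. *Apoe* was highest in WT MDPs with vehicle (9.91) and lowest in WT MDPs with GSI (7.58). *Vcam1* was highest in IkL/L MDPs with vehicle (6.85) and lowest in WT CDPs with vehicle (5.10).

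Other genes of the same functions were counted for the averaged comparisons. Over all genes 3.85% rose and 2.15% fell in IkL/L progenitors, 4.72% rose and 4.01% fell in CDPs, and 0.221% rose and 0.0853% fell with GSI, which is the background for these counts. Of 17 further macrophage regulators and receptors, 3 rose in IkL/L progenitors and 0 fell, with a median of 0.06. The 3 were *Mrc1*, which encodes the mannose receptor (2.57, adjusted p = 2.76e-05), *Timd4*, a receptor for dying cells (2.48, adjusted p = 5.49e-05), and *Nr1h3*, which encodes the lipid sensor LXRα (0.73, adjusted p = 0.00871). Each kept this genotype call without every 1 of the 16 arrays. *Timd4* was 7.52 to 9.14 in the 4 IkL/L CDP arrays and 4.14 to 4.41 in the 4 WT CDP arrays, which did not overlap. Averaged over genotype and treatment, 4 of the 17 rose in CDPs against MDPs (3 to 6 without 1 array). They were *Timd4*, *Nr1h3*, *Mrc1* and *Pparg*, and *Pparg* lost its call without any 1 of 7 arrays. For the first 3 the rise was not seen in every setting. *Timd4* was 4.57 to 5.73 in IkL/L MDPs but 4.07 to 4.41 in WT MDPs, below the array medians like WT CDPs. *Mrc1* with vehicle was 7.15 and 7.64 in IkL/L CDPs, against 7.15 and 8.22 in IkL/L MDPs. *Nr1h3* with GSI was 4.79 and 4.50 in WT CDPs, against 4.82 and 4.78 in WT MDPs. On average *Mrc1* rose with GSI (1.32, limma, adjusted p = 0.0209). Leaving out any 1 of 6 arrays removed the call (highest adjusted p 0.0884), as did median centring. *Mrc1* was 8.13 and 7.55 with GSI in WT CDPs, against 4.60 and 4.91 with vehicle. IkL/L CDPs had 8.59 and 9.17, against 7.15 and 7.64. WT MDPs had 4.41 and 5.03, against 4.30 and 4.31, and IkL/L MDPs 7.90 and 8.01, against 7.15 and 8.22. WT MDPs and vehicle-treated WT CDPs thus lay near the array medians of 4.52 to 4.65. The rise was larger in CDPs, but the stage difference passed a test of its dependence on GSI in 0% of all genes. Of 14 monocyte genes, 0 were called by genotype (limma) and 3 had an unadjusted p under 0.05. *Cx3cr1*, the fractalkine receptor of monocytes and MDPs, fell with GSI by 1.34 (adjusted p = 0.0199), in the same direction as the differences of *Cd14* and *Apoe*, and lost this call without any 1 of 6 arrays. In CDPs *F13a1* (-1.58) and *Ms4a3* (-3.87) fell, with and without each array, and *Itgam* rose (0.48), which was lost without any 1 of 9 arrays.

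Around *Apoe*, 4 of 10 genes listed for lipid efflux and lipoproteins rose in IkL/L progenitors, and between 1 and 4 did so without 1 array. They were *Nr1h3*, which was also counted among the macrophage regulators, *Lpl*, *Pltp* and *Abcg1*. These calls are averages over both stages. By stage, the median genotype difference of the 10 genes was 0.65 with vehicle and 0.44 with GSI in CDPs. In MDPs it was 0.07 with vehicle and 0.03 with GSI. Around C1q, 2 of 11 complement genes rose, the receptor genes *C3ar1* and *Itgax* (0 to 3 without 1 array). Around *Cd14*, 1 of 9 LPS receptor genes rose, *Ticam1* (0.33, adjusted p = 0.00242), which encodes an adaptor of TLR4. Around *Hmox1*, 3 of 11 heme and iron genes rose (0 to 3 without 1 array), which were *Blvrb*, whose product acts on the breakdown products of heme, the iron exporter gene *Slc40a1* and the transferrin receptor gene *Tfrc*. Of 9 oxidative stress genes 2 rose, *Nqo1* (1.61, adjusted p = 0.00859) and *Slc7a11* (1 to 3 without 1 array). Around *Vcam1*, 2 of 10 adhesion genes rose, *Itgb1* (0.60, adjusted p = 0.00112) and *Icam1* (1 to 3 without 1 array). Of 8 lysosomal membrane genes, to which *Cd68* is related, 0 were called by genotype and 1 had an unadjusted p under 0.05. No gene of these lists fell by genotype. In CDPs against MDPs the genes that rose and fell numbered 4 and 1 for lipid efflux and lipoproteins, with *Nr1h3* counted again. They numbered 2 and 1 for complement, 3 and 2 for LPS receptor and 0 and 1 for heme and iron. For oxidative stress they were 1 and 0, for adhesion 3 and 1 and for lysosomal membrane genes 0 and 0. Without 1 array the genes that rose numbered 3 to 5, 2 to 3, 3 to 3, 0 to 1, 0 to 2, 3 to 4 and 0 to 1 in this order, and those that fell 1 to 1, 0 to 2, 2 to 2, 1 to 1, 0 to 1, 1 to 2 and 0 to 1. The oxidative stress gene that rose, *Slc7a11*, lost its call without any 1 of 12 arrays. With GSI 0 genes of the lipid, complement, LPS, heme, stress, adhesion and lysosome lists were called (limma), where 1, 0, 3, 2, 2, 3 and 1 had an unadjusted p under 0.05.

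Markers of other cells moved with genotype as well. Of 12 neutrophil markers 9 rose in IkL/L progenitors, and their summed level lay at 14.28 to 15.08 on IkL/L arrays and 12.68 to 14.21 on WT arrays. Of 9 mature DC markers 9 rose on average over stages and treatments, but their levels differed by stage. Their summed level was 11.88 to 12.63 in IkL/L CDPs, against 9.03 to 9.65 in WT CDPs. IkL/L MDPs had 8.63 to 9.11, against 8.24 to 8.39 in WT MDPs. These markers also rose in CDPs against MDPs, 9 of 9. Of 10 stromal and endothelial markers 2 rose by genotype, and 0 of 6 erythroid, 0 of 7 B cell and 0 of 6 T and NK cell markers were called (0, 0 and 2 at an unadjusted p under 0.05, limma). With 1 array left out, 7 to 9 neutrophil and 8 to 9 mature DC markers rose. The part of these cells in the differences of the 9 genes was not tested. Of 10 DC progenitor genes 0 were called by genotype (limma; 5 at an unadjusted p under 0.05), and 5 rose and 1 fell in CDPs. The labelled cells had *Flt3* at 7.71 to 9.60 in CDPs and 6.36 to 7.76 in MDPs, *Kit* at 4.85 to 7.61 in CDPs and 5.94 to 8.05 in MDPs and *Csf1r* at 9.99 to 10.88 in CDPs and 9.62 to 10.41 in MDPs.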

How the data were processed

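Transcriptomes were measured on 16 Affymetrix Gene ST arrays, 2 in each of 8 groups taken from the labels. The deposited log2 values come from the authors' RMA run, for which the submitters' notes name Affymetrix Expression Console 1.4.1. RMA subtracts background, normalises across arrays and combines the probes of a set. RMA pulls array distributions together, so a change shared by most genes would not be seen. Values of low genes lie near background and are compressed. Probe sets (28188) were named with GEO's platform annotation: 21789 had 1 symbol, 1621 several and 4778 none. Where a symbol had several probe sets, that with the highest mean signal was used, and all 19938 genes were tested.

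With limma, a model with a mean for each of 8 groups was fitted to the 16 arrays together (version 3.58.1, R 4.3.3; 8 residual and 2.35 prior degrees of freedom). Tests were two-sided and Benjamini-Hochberg adjusted over all genes, threshold 0.05. Contrasts were IkL/L against WT, CDPs against MDPs and GSI against vehicle, each in 4 settings and averaged, and 3 differences of differences. The fit was tested on simulated data, with independent noise on every array and known changes by genotype only. That simulation lacked the shared deviation of same-numbered arrays, so it says nothing about its effect. Alternatives were another moderation, array weights, median centring, quantile normalisation, a filter on signal, the mean over probe sets, each array left out, only the groups compared, a replicate block and a fold threshold of 1.5 alone. A block within each population, and alternatives for genes of other lists, were added after seeing the data. The 9 genes, the 16 other lists and the naming rules (all 9 genes, up to 4 called genes of each list, the 5 genes most like the C1q genes, *Apoe* and *Cd14*) were chosen with earlier results of these data known. Replicate arrays correlated at r = 0.983 to 0.996 across genes. The number of arrays limits the precision. Promoters are from RefSeq.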

Additional observations from a re-analysis of the deposited data

Results flagged for a closer look

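For 0 of the 9 genes did the size of the genotype or stage difference pass a test of its dependence on stage or GSI (limma, 0 at an unadjusted p under 0.05). Among the genes of related function that are named, *Timd4* had a genotype difference that was 3.22 larger in CDPs than in MDPs (limma, adjusted p = 0.00377), where its WT arrays lay at 4.07 to 4.41, below the array medians of 4.52 to 4.65, so that the size of the difference is uncertain, and *Abcg1*, a cholesterol exporter gene, one that was 0.69 larger (adjusted p = 0.0295). So had 5 mature DC markers, namely *Fscn1* by 4.05 (3.96e-04), *Ccr7* by 3.77 (0.0113), *Ccl22* by 2.98 (0.00149), *Cd83* by 2.62 (0.00490) and *Relb* by 1.17 (0.0459), with adjusted p-values in parentheses. Groups of 2 arrays are too small for a test of single outlying arrays.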

How the results depend on the processing

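Over all 18 comparisons, the 9 genes gave 162 differences and 3897 alternative values. Of these values 3872 stayed on the same side of the threshold, 15 lost a call and 10 gained one. Only *Cd14* by genotype and *Cd68* by stage were called in the main fit, and all 15 lost calls were of *Cd14*. The other differences were not called, many far from the threshold, so the 3872 say little about stability. In 186 alternative values (of 83 differences) the sign changed, 182 of them with an array left out, and none of these was called in either fit. The count of called genes among the 9 stayed within 1.5 times of that reported in 411 of 451 alternatives. Outside the averaged genotype and stage comparisons that count was 0 in the main fit, so this also says little about stability. By genotype on average, 1 gene became 0 with trend and robust moderation (*Cd14* at adjusted p = 0.0538), with array weights (0.0524) and with median centring (0.0565), became 2 among genes above the median signal (*C1qa* at 0.0400), and ran from 0 to 2 with 1 array left out. A fold over 1.5 alone gave, by genotype, 5 genes on average, 5 in CDPs with GSI, 3 in CDPs with vehicle, 7 in MDPs with GSI and 5 in MDPs with vehicle. By stage it gave 1 in IkL/L with GSI, 3 in IkL/L with vehicle, 1 in WT with GSI and 4 in WT with vehicle. By GSI it gave 3 on average, 4 in IkL/L CDPs, 4 in IkL/L MDPs, 3 in WT CDPs and 2 in WT MDPs. For the differences of genotype by stage, genotype by GSI and stage by GSI it gave 1, 5 and 1.

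With 1 array left out, differences that changed sign ran from -0.50 to 0.22 for *Apoe* by genotype. In CDPs with vehicle that of *Cd14* by genotype ran from -0.04 to 1.40. By stage they ran from -0.09 to 0.57 for *Adgre1*, -0.09 to 0.49 for *C1qb*, -0.06 to 0.53 for *C1qc* and -0.07 to 0.57 for *Hmox1*. By GSI they ran from -0.44 to 0.22 for *Adgre1*, -0.36 to 0.08 for *Vcam1* and, in IkL/L CDPs, -1.54 to 0.10 for *Apoe*. In CDP groups array 1 lay above array 2 by median gaps from 0.80 to 2.35 over the 9 genes. Leaving out an array there thus also shifts the mean of its group. For *Vcam1* such gaps were seen in MDPs instead, from 1.31 to 1.75. *Cd14* in CDPs with vehicle was higher in IkL/L between same-numbered arrays, at 10.16 against 9.33 and 8.72 against 8.18. Beyond the array left out, the cause of the sign changes was not tested.

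Same-numbered arrays deviated together (r over 0.1) in 17 of 28 pairs of groups (range -0.25 to 0.66) but not in all of them, and no label says what a number stands for, so the numbers were not taken to pair arrays. Between GSI and vehicle r was 0.66 in IkL/L CDPs, 0.59 in WT CDPs, -0.02 in IkL/L MDPs and 0.48 in WT MDPs. Between same-numbered arrays, GSI minus vehicle was below 0 in 8 of 8 cases for *Cd14* (-2.65 to -0.63) and for *Apoe* (-2.48 to -0.66). With a replicate block, 2 of 9 genes were called by GSI on average, *Apoe* (adjusted p = 0.0238) and *Cd14* (0.0368), with 176 genes in all against 61 without the block. With the block within each population, chosen after seeing the data, there were again 2 (0.00417 and 0.00317, 579 genes in all), and in WT CDPs 1, *Cd14* (0.0228). The block changed no other call of the 9 genes. A fit of only the groups compared could not be made for averaged comparisons.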
